A study of Mus musculus with 8 samples.

Results

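Dysf and 9 genes of its family and of plasma membrane repair were described in esophagi of MGL KO and WT mice. The 10 genes were picked by symbol from 32849 listed symbols: the ferlins Dysf, Myof, Otof, Fer1l5 and Fer1l6, the dysferlin partners Trim72, Cav3 and Capn3, and the annexins Anxa1 and Anxa2. All 10 were among the 14864 genes that passed a filter on low counts. Dysf was chosen for its value in the comparison reported here, and the others were added with results of that comparison known, so the differences between MGL KO and WT are given as descriptions, and counts of calls among the 10 are no independent evidence.

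RNA was sequenced from frozen esophagus tissue of 4 MGL KO mice, which lack monoacylglycerol lipase (MGL, gene Mgll), the enzyme that degrades the endocannabinoid 2-arachidonoylglycerol, and of 4 WT mice. Per the study's methods the line was obtained from another laboratory and bred in-house with WT littermates, and young adult mice of both sexes were used. The study describes these mice as healthy, and the labels give neither a treatment nor the age or sex of each mouse. Replicate numbers name libraries, and where they do not come from separate animals p-values measure only the spread between these libraries, which may be technical.

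Ferlins are large proteins anchored in membranes by their C-terminal end and carry several C2 domains, which bind phospholipids, in some cases with calcium. Dysferlin is known from skeletal muscle, where calcium entering through a wound triggers vesicles to fuse with the torn sarcolemma, and its loss in humans causes a muscular dystrophy. The muscle coat of the mouse esophagus is largely striated, so the organ holds skeletal-type muscle beside squamous epithelium and connective tissue.

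The counts summed to between 13479069 and 17090152 per library. Levels are given as normalized CPM, which are counts relative to the size of the library over tested genes, scaled by TMM factors. A library with 0 counts of a gene allows up to 3 counts, or 0.167 to 0.271 normalized CPM, as far as counting error goes. Mgll, the deleted gene, ranged from 12.55 to 15.97 normalized CPM in MGL KO and from 66.6 to 88.3 in WT and was lower in 4 of 4 MGL KO libraries. Its log2 fold change (MGL KO minus WT throughout, with its standard error, SE) was -2.57 (SE 0.13), and edgeR's quasi-likelihood test gave an adjusted p of 0.000133. Skeletal muscle markers, 16 genes led by Acta1 and Myh1, summed to between 45920 and 110900 normalized CPM in MGL KO and between 58540 and 92960 in WT, and 6 basal squamous epithelium markers to between 2929 and 5491 and between 3219 and 4823, so both main tissues of the labelled organ were present. The markers Tnnc2 and Tagln were low, at 1.10 to 3.52 and 0.36 to 1.11 normalized CPM. Of their exon bases, 68.7% and 66.7% also lie in exons of other genes on either strand. MGL KO 4 stood apart, with 543 normalized CPM summed over 6 airway ciliated cell markers against 9.93 to 19.8 in the other libraries, so some values are also given without it. In bulk tissue, fewer cells of a type and less RNA per cell cannot be told apart.

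Dysf was higher in MGL KO than in WT esophagi, about 2-fold, whereas no other ferlin except the scarce Fer1l6 differed by as much. In the MGL KO libraries 1 to 4, Dysf stood at 237, 299, 245 and 159 normalized CPM, and in the WT libraries 1 to 4 at 96.6, 108, 138 and 132. All MGL KO values exceeded all WT values, with MGL KO 4 the lowest of its group and MGL KO 2 the highest of all. The means were 235 ± 57.9 normalized CPM (SD, n = 4) in MGL KO and 119 ± 19.6 (SD, n = 4) in WT, 1.98-fold apart (log2 fold change 0.98, SE 0.20). The counts behind these values ranged from 2825 to 3977 in MGL KO and from 1732 to 2103 in WT. Leaving out single libraries moved the log2 fold change to no less than 0.85, without MGL KO 2, and no more than 1.13, without MGL KO 4.

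Myof encodes myoferlin, the ferlin closest to dysferlin, which acts in myoblast fusion and in vesicle traffic of endothelial and other cells. It stood at 54.1, 46.4, 61.1 and 80.7 normalized CPM in MGL KO 1 to 4 and at 83.2, 58.3, 36.3 and 70.4 in WT 1 to 4. The groups overlapped over most of their range, and the highest and the lowest value were both from WT libraries. The log2 fold change was -0.03 (SE 0.26).

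Otof encodes otoferlin, the calcium sensor for transmitter release at the inner hair cell synapse. It was close to the limit of detection, with 14, 14, 16 and 31 counts in MGL KO 1 to 4 and 13, 21, 18 and 12 counts in WT 1 to 4. Its highest count came from MGL KO 4, the library with airway markers, and its log2 fold change was 0.32 (SE 0.34) and 0.08 without that library.

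Fer1l5, a ferlin known from myoblast fusion, varied little. Its level was 8.27, 9.20, 7.77 and 8.88 normalized CPM in MGL KO 1 to 4 and 7.75, 9.19, 6.84 and 7.76 in WT 1 to 4, with a log2 fold change of 0.11 (SE 0.16). The groups overlapped. Of its exon bases, 19.6% also lie in exons of Lman2l on the opposite strand.

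Fer1l6 had the highest fold change of the 10 genes at a low level. Its counts were 60, 59, 113 and 191 in MGL KO 1 to 4 and 40, 47, 60 and 46 in WT 1 to 4. On the scale of normalized CPM these were 3.67, 5.32, 6.97 and 10.7 in MGL KO and 2.23, 2.68, 3.94 and 3.00 in WT. Thus 3 MGL KO libraries lay above all WT libraries, and MGL KO 1 lay below WT 3. The log2 fold change was 1.17 (SE 0.35). The highest value again belonged to MGL KO 4, without which the log2 fold change was 0.85, and the part of airway RNA in this difference was not tested.

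**Figure D1:**
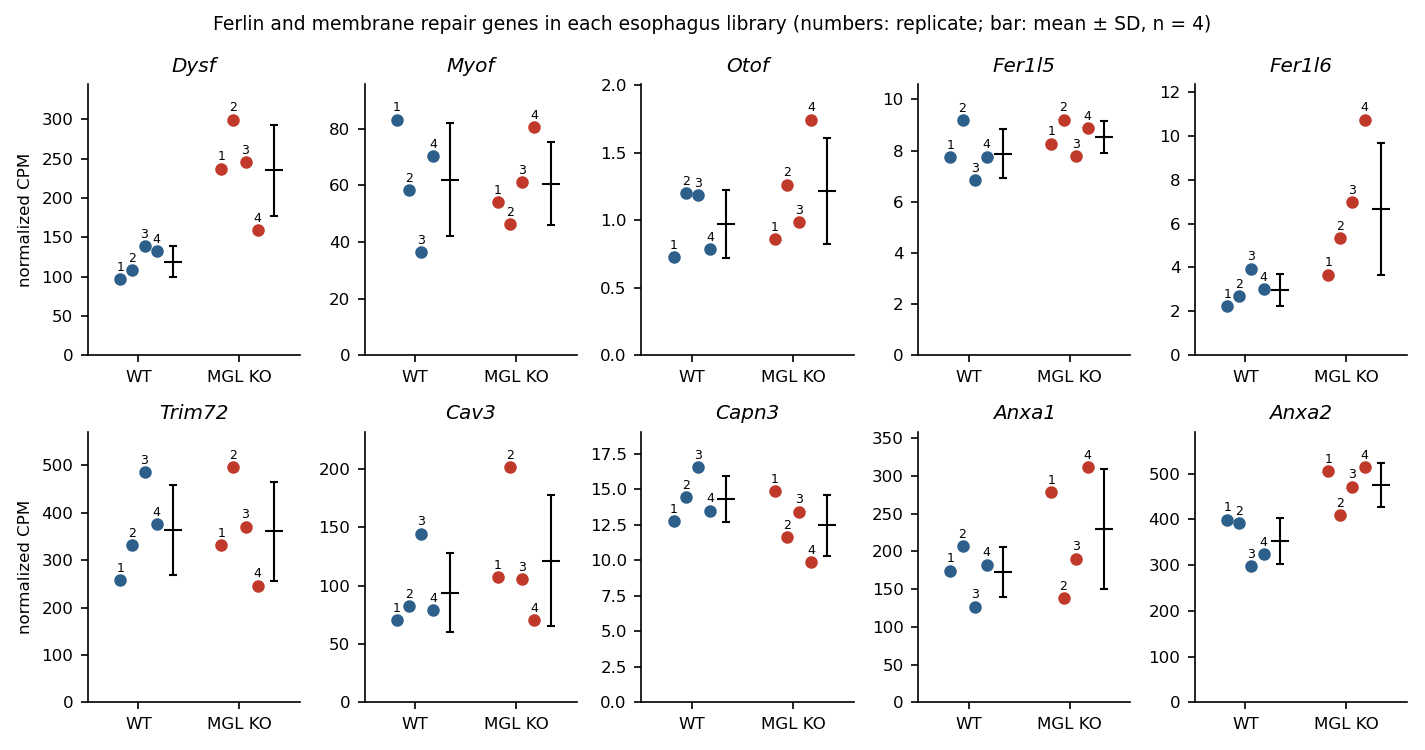
Normalized CPM (y axis, from 0) of the 10 genes in each WT and MGL KO library, with replicate numbers beside the points and bars for mean ± SD (n = 4). The 4 MGL KO libraries sit above the 4 WT libraries for Dysf and Anxa2, and the groups overlap for the other 8 genes.

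The partners of dysferlin showed no such difference. Trim72 encodes MG53, a muscle tripartite motif protein that gathers vesicles at a membrane wound. It stood at 331, 497, 371 and 246 normalized CPM in MGL KO 1 to 4 and at 258.5, 332, 486 and 376 in WT 1 to 4. The spread within each group was wide and the means were nearly equal, at 361 ± 104 normalized CPM (SD, n = 4) in MGL KO and 363 ± 95.3 (SD, n = 4) in WT, a log2 fold change of -0.01 (SE 0.25). The lncRNA gene Gm15533 on the opposite strand shares 20.6% of the exon bases of Trim72 and was not among the listed symbols.

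Cav3, the gene of the muscle caveolin caveolin-3, which binds dysferlin, stood at 107, 201, 105 and 70.5 normalized CPM in MGL KO 1 to 4 and at 70.6, 82.1, 144 and 79.1 in WT 1 to 4. One library of each group was far above the rest, MGL KO 2 and WT 3, and the log2 fold change of 0.36 (SE 0.34) depended on them. It was 0.01 without MGL KO 2 and 0.66 without WT 3.

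Capn3, which encodes the muscle protease calpain-3, stood at 14.9, 11.6, 13.4 and 9.89 normalized CPM in MGL KO 1 to 4 and at 12.8, 14.4, 16.6 and 13.5 in WT 1 to 4. The groups overlapped, with a log2 fold change of -0.20 (SE 0.16), -0.10 without MGL KO 4, -0.12 without WT 3 and -0.07 under limma-voom. Its counts carry more doubt than those of the other genes, because 29.2% of its exon bases also belong to exons of Gm52968 on the same strand and 56.0% to exons of some other gene on either strand. Gm52968 was not among the listed symbols, and how such reads were counted is not given in the sources used here. For Dysf the shared part was 0% on the same strand and 8.6% on either strand, and the main sharer, Gm33024, was at 0 to 0.39 normalized CPM.

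The promoters of Dysf, Trim72, Cav3 and Capn3 are shown because these genes are known from muscle. Only Dysf among them differed between the groups without overlap. Each window holds 250 bases before and 50 bases from the start of the canonical transcript (GENCODE M39) on the forward strand of GRCm39, at chr6:83985095-83985394 for Dysf, chr7:127602812-127603111 for Trim72, chr6:112436216-112436515 for Cav3 and chr2:120293798-120294097 for Capn3. Capitals mark matches to the E-box, CANNTG, bound by the MyoD family, and to the MEF2 motif, searched on both strands.
Dysf: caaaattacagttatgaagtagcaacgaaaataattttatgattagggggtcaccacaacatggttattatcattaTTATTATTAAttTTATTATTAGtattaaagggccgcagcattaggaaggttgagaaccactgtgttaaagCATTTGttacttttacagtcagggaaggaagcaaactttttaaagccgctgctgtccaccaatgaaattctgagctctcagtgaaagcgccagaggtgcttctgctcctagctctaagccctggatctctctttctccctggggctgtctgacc
Trim72: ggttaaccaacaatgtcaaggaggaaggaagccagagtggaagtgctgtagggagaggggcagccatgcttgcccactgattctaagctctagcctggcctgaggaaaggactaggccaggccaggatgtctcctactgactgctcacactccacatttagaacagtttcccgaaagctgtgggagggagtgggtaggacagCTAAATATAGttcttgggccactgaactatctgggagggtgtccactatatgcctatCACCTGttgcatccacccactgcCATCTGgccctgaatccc
Cav3: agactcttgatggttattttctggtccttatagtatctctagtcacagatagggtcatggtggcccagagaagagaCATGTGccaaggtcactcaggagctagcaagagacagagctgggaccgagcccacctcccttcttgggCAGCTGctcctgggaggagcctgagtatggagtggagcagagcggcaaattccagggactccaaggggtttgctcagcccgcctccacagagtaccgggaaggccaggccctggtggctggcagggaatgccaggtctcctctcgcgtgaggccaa
Capn3: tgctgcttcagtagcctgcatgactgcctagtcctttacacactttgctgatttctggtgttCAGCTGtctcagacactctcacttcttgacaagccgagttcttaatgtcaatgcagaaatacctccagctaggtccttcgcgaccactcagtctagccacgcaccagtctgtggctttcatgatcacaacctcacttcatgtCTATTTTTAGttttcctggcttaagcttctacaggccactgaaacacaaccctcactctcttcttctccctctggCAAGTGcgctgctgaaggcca
The Dysf window held 2 MEF2 matches, at positions -174 and -162 from the start, and 1 E-box at -104. Trim72 held 1 MEF2 match and 2 E-boxes, Capn3 1 and 2, and Cav3 0 and 2. Among the other genes of the set, only Anxa1 had a MEF2 match, 1 in its window. Of 21770 promoters of protein-coding genes, 70.6% held an E-box and 3.0% a MEF2 match, so an E-box sets no gene apart. The AP-1 motif TGANTCA, found in 7.1% of promoters, and the cyclic AMP response element TGACGTCA, found in 2.4%, matched in none of these 4 windows, and AP-1 matched once in those of Anxa2 and Fer1l6. No matches overlapped each other, and a match is a description of letters, not a site.

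The annexins bind phospholipids in a calcium-dependent manner and assemble at membrane wounds. Anxa2, which forms a complex with the S100 protein S100a10, stood at 505, 410, 471 and 514 normalized CPM in MGL KO 1 to 4 and at 399.3, 391.7, 297.2 and 324.5 in WT 1 to 4. All MGL KO libraries lay above all WT libraries, although the lowest MGL KO library, at 409.6, was close to the highest WT library, at 399.3. The means of 475 ± 47.2 and 353 ± 50.2 normalized CPM (SD, n = 4 each) were 1.34-fold apart (log2 fold change 0.43, SE 0.14), and single libraries left out moved the log2 value to between 0.36 and 0.49.

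Anxa1, the gene of an annexin that is abundant in squamous epithelium and leukocytes, stood at 278, 138, 190 and 312 normalized CPM in MGL KO 1 to 4 and at 174.5, 206, 127 and 182 in WT 1 to 4. The groups overlapped, with MGL KO 2 below 3 of the WT libraries and MGL KO 3 below WT 2. Its log2 fold change was 0.41 (SE 0.26), between 0.23 without MGL KO 4 and 0.60 without MGL KO 2.

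At an adjusted p of 0.05, edgeR's quasi-likelihood test called 0 of the 10 genes, beside 0.0471% of all tested genes, that is 7 genes, and 1285 tested genes had an unadjusted p under 0.05, among them 3 of the 10. Dysf alone of the 10 passed in 5 other fits, beside 0.935% of tested genes under DESeq2, 0.431% under edgeR's exact test on the filtered genes, 0.185% under that test without the filter, 0.168% under limma-voom with sample quality weights and 0.195% with skeletal muscle expression as a covariate. The groups did not overlap for 2 of the 10, both higher in MGL KO, beside 2.72% of all tested genes in that direction, 3.3% in the other and 6.02% in either. The log2 fold change was above 0 for 7 and below 0 for 3 of the 10, where 53.0% of all tested genes were above 0. The median was 0.34, or 0.32 without Dysf, against a median of 0.02 over all tested genes. The median of the 10 was 0.19 without MGL KO 2, 0.19 without MGL KO 4, 0.22 without WT 1 and 0.21 under limma-voom. The signs of Trim72, Myof and Fer1l5 turned in 7, 4 and 1 of the 20 other settings. Since these genes were picked with the comparison known, their counts are no result.

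**Figure D2:**
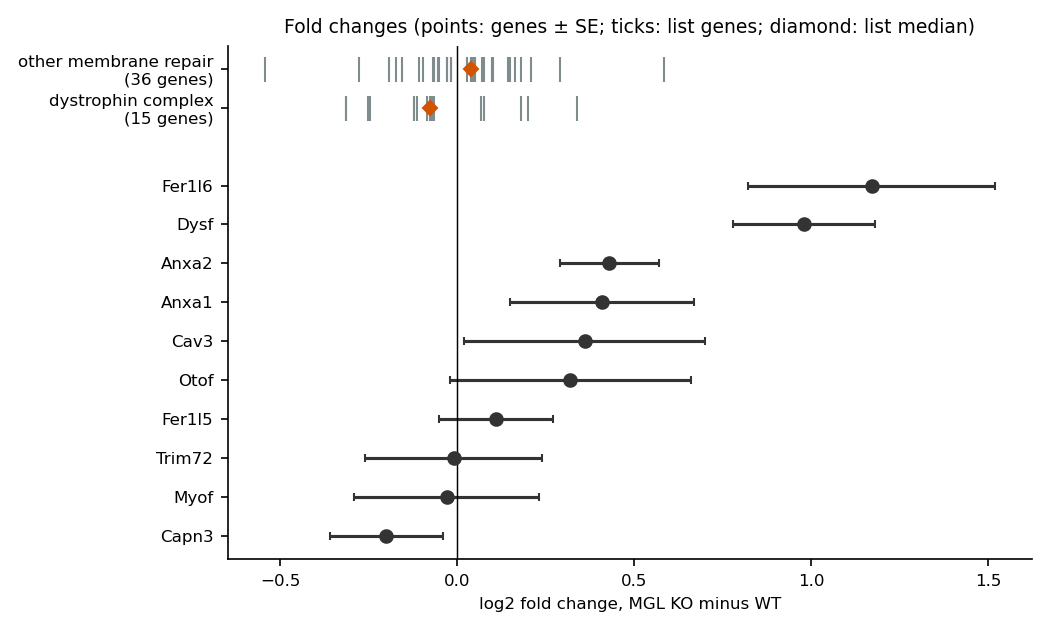
Log2 fold change of MGL KO minus WT (x axis) for the 10 genes, as points with standard errors, and for the genes of the lists of other membrane repair genes and dystrophin complex genes, as ticks with the median as a diamond. Fer1l6 at 1.17 and Dysf at 0.98 lie to the right of every listed gene, whose largest value is 0.58 (Syt7, 0.06 without MGL KO 4).

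Other genes of membrane repair had a median log2 fold change near 0, close to that of all tested genes. The 36 listed genes include 5 further annexins, S100 partners, AHNAK scaffolds, the ESCRT machinery that sheds wounded membrane, EH-domain proteins, calpains, caveolar proteins, vesicle fusion proteins and dysferlin-binding proteins. All 36 were tested, and edgeR's quasi-likelihood test called 0 of them at an adjusted p of 0.05, beside 0.0471% of all tested genes. It had 1 at an unadjusted p under 0.05 (8.65% of all tested genes), with 0 calls by the exact test, DESeq2 or limma-voom. The log2 fold change was above 0 for 20 and below 0 for 16, with a median of 0.04, where 53.0% of all tested genes were above 0. The summed level was 6353 to 7245 normalized CPM in MGL KO and 6676 to 7147 in WT. The groups did not overlap for 2 of them, a share near the 6.02% of all tested genes, so these 2 are named as the extremes and are no result about the list. Cavin1, which coats caveolae, ranged from 355 to 394 normalized CPM in MGL KO and from 293 to 347 in WT, with a log2 fold change of 0.21 (SE 0.10). Ahnak2, a large scaffold protein related to the dysferlin-binding Ahnak, ranged from 45.4 to 72.2 normalized CPM in MGL KO and from 80.1 to 95.8 in WT, a log2 fold change of -0.54 (SE 0.15).

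The most abundant genes of the list were at similar levels in both groups. Ahnak, the scaffold itself, averaged 1486 ± 310 normalized CPM (SD, n = 4) in MGL KO and 1600 ± 214 (SD, n = 4) in WT. Bin1, which shapes the T-tubules where dysferlin also resides, averaged 903 ± 344 normalized CPM in MGL KO and 922 ± 230 in WT, and Anxa6, an annexin of the repair cap, 452 ± 82.4 and 473 ± 90.6. Of the genes with the highest fold changes, S100a10, the partner of annexin A2, had a log2 fold change of 0.29 (SE 0.16). Syt7, a calcium sensor of lysosome exocytosis, had 0.58 (SE 0.38) from a range of 2.27 to 7.14 normalized CPM in MGL KO and of 2.40 to 2.61 in WT, and its log2 fold change was 0.06 without MGL KO 4. At the other end, Ano5, whose human mutations cause a dystrophy resembling dysferlin loss, had a log2 fold change of -0.28 (SE 0.17, and -0.15 without MGL KO 4), and Parvb, which encodes a dysferlin-binding parvin, -0.19 (SE 0.14, and -0.10 without MGL KO 4). The groups overlapped for all 4.

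The dystrophin complex ties the sarcolemma to the matrix, and its loss tears it. It likewise held no gene past the threshold, but with 0.0471% of all tested genes called, that says little about the list. All 15 listed genes were tested, and edgeR's quasi-likelihood test called 0 at an adjusted p of 0.05. It had 0 at an unadjusted p under 0.05 (8.65% of all tested genes), with 0 calls by the exact test, DESeq2 or limma-voom. The groups overlapped for all 15, where 6.02% of all tested genes did not overlap. Of the log2 fold changes, 5 were above 0 and 10 below 0, with a median of -0.08. Without MGL KO 4, 8 were above 0 and 7 below 0, with a median of 0.02. The median was -0.15 without WT 1 and -0.03 without WT 3. The highest were Nos1, the neuronal nitric oxide synthase bound to the complex, at 476 ± 94.3 normalized CPM in MGL KO and 420 ± 41.8 in WT, and Dag1, the dystroglycan gene, at 396 ± 50.7 and 378 ± 45.3 (SD, n = 4 each). The lowest log2 fold change was -0.32 for Lama2 (SE 0.21, and -0.14 without WT 4), the laminin chain that binds dystroglycan. Sntb2, a syntrophin gene, was at -0.31 (SE 0.17) and Sgcd, a sarcoglycan gene, at -0.25 (SE 0.21, and -0.04 without WT 4).

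Within a library, Dysf could be set against other genes known from muscle, although bulk tissue does not show which cells held their RNA. The ratio of Dysf counts to Trim72 counts was 0.716, 0.603, 0.661 and 0.645 in MGL KO 1 to 4 and 0.374, 0.326, 0.284 and 0.351 in WT 1 to 4. The groups lay further apart, relative to their spread, than for Dysf alone, with means of 0.656 ± 0.047 and 0.334 ± 0.038 (SD, n = 4 each), 1.97 times higher in MGL KO. The ratio of Dysf counts to Cav3 counts was 2.21, 1.49, 2.33 and 2.25 in MGL KO 1 to 4 and 1.37, 1.32, 0.958 and 1.67 in WT 1 to 4, where MGL KO 2 fell below the highest WT library. Against the mean log2 CPM of the 16 skeletal muscle markers, Dysf was lower by 2.89 ± 0.16 in MGL KO and by 3.92 ± 0.12 in WT (SD, n = 4 each), a difference between groups of 1.03 on the log2 scale. With that muscle mean as a covariate in the fit, the log2 fold change of Dysf was 1.01. These ratios use the comparison by which Dysf was chosen and are descriptions of it.

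**Figure D3:**
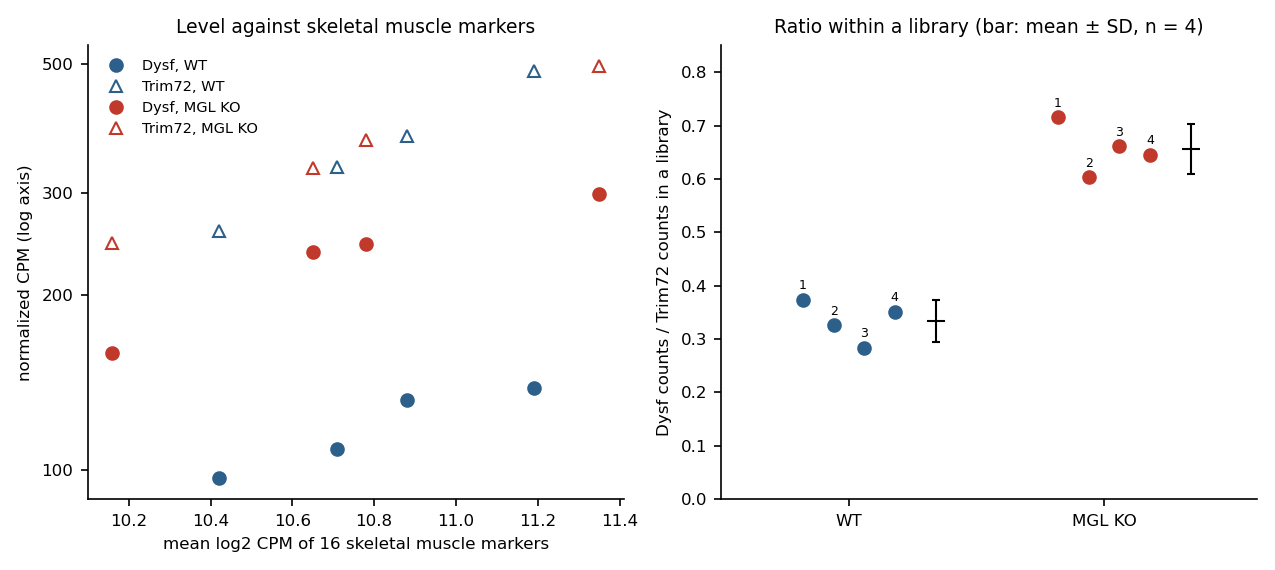
Left, normalized CPM on a log axis of Dysf (filled circles) and Trim72 (open triangles) against the mean log2 CPM of 16 skeletal muscle markers in each library; right, the ratio of Dysf to Trim72 counts in each library with mean ± SD (n = 4). Trim72 of both groups follows a single course, whereas Dysf of the MGL KO libraries, at 159 to 299, lies above that of the WT libraries, at 96.6 to 138.

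Dysf, Trim72 and Cav3 followed muscle within the groups, as seen in deviations from the group means of log2 CPM. These are correlations over 8 libraries, where the genes of a library share its mix of tissues, and are given with no test. Dysf followed Trim72 with r = 0.95 (Spearman's rho = 1.00, and r = 0.90 without the 2 libraries farthest from the median of Dysf) and the mean of the skeletal muscle markers with r = 0.96 (rho = 1.00, and r = 0.92 without those 2). Its correlation with Cav3 was r = 0.86 (rho = 0.83). For Capn3 it was r = 0.59 (rho = 0.40), and r = -0.26 without the 2 libraries, so that relation rested on them. Capn3 followed the skeletal muscle mean less closely, with r = 0.48 (rho = 0.40). Over all 8 libraries without removing the group means, Dysf and Trim72 had r = 0.45, while Trim72 and the muscle mean had r = 0.98.

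Both annexins and Myof ran opposite to muscle. Against the skeletal muscle mean, Anxa1 and Anxa2 each had r = -0.87 (rho = -0.79 and -0.90), and r = -0.56 and -0.67 without the 2 libraries farthest from their medians. Myof had r = -0.83 (rho = -0.74, and r = -0.82 without 2 libraries). Of the marker lists compared, Myof followed the mean of 4 adipocyte markers most closely, with r = 0.98 (rho = 0.98, and r = 0.95 without the 2 libraries farthest from its median). Those markers summed to between 8.84 and 176 normalized CPM in MGL KO and between 3.35 and 156 in WT, lowest in MGL KO 2 and WT 3, the libraries richest in muscle. Anxa1 followed the basal squamous markers with r = 0.83 (rho = 0.50), which fell to 0.03 without the 2 libraries farthest from its median. With the differentiated squamous markers it had r = 0.81 (rho = 0.74), which fell to 0.22 without those 2. Otof and Fer1l6 had r = 0.74 with each other (rho = 0.74, and r = 0.36 without the 2 libraries farthest from the median of Otof).

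**Figure D4:**
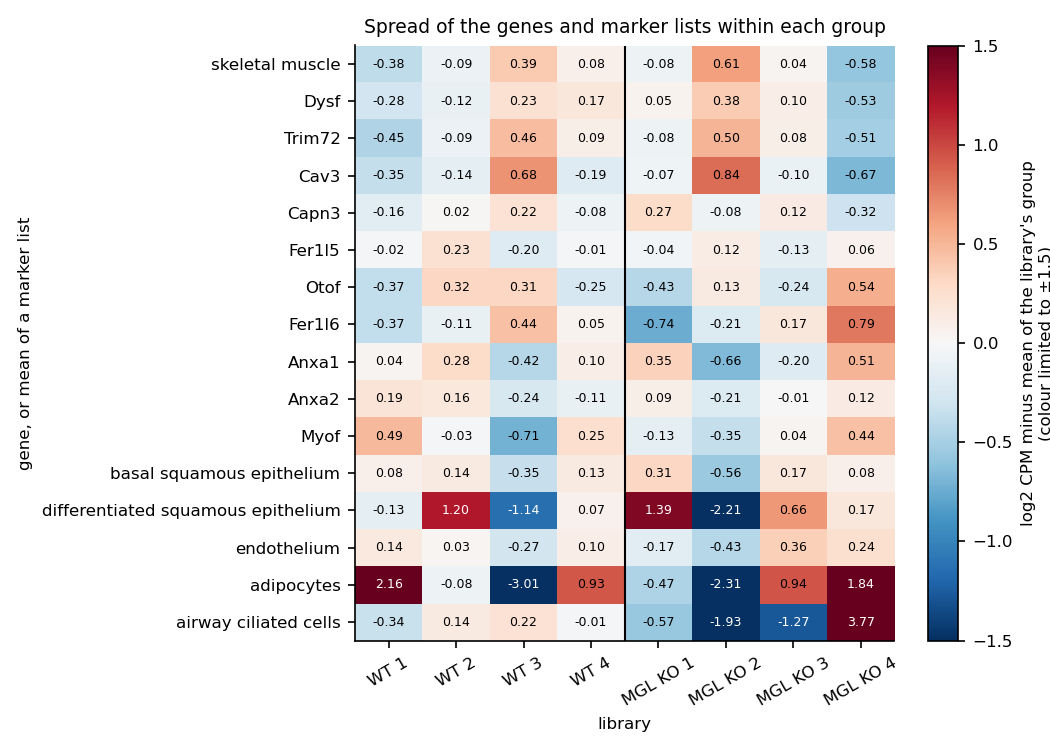
Log2 CPM of each gene, or mean of each marker list, minus the mean of the library's own group (color, limited to 1.5 in either direction, with the value printed) for the 4 WT and 4 MGL KO libraries. MGL KO 2 and WT 3 are high for skeletal muscle, Dysf, Trim72 and Cav3 and low for Anxa1, Anxa2, Myof and adipocytes, and MGL KO 4 is low for the muscle genes and 3.77 above its group mean for airway ciliated cells.

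Several marker lists had medians away from that of all tested genes, 0.02, and their part in the difference of Dysf was not tested. Over all tested genes, 53.0% had a log2 fold change above 0. The skeletal muscle markers had a median log2 fold change of 0.05, with 10 of 16 above 0, and of -0.22 without MGL KO 2 and 0.22 without MGL KO 4 or without WT 3. Immediate early genes were above 0 in 11 of 12 cases, with a median of 0.69 and summed levels of 498 to 834 normalized CPM in MGL KO and 381 to 440 in WT. Macrophage markers were below 0 in 5 of 5, with sums of 124 to 158 and 148 to 444 normalized CPM and a median of -0.86, or -0.49 without WT 1, the library with the highest sum. Fibroblast markers were below 0 in 5 of 5, with a median of -0.35, or -0.18 without MGL KO 2, -0.61 without MGL KO 3 and -0.23 without WT 4. Endothelial markers had a median of -0.16, which was 0.01 without MGL KO 2. The medians of adipocyte markers, 0.39, and of airway ciliated cell markers, 3.46, rested on MGL KO 4, without which they were -0.22 and 0.01, and that of adipocyte markers was 1.30 without WT 1 and 0 without WT 3. Of the 8 tested genes of muscle regeneration, 5 were above 0, with a median of 0.07. That median was -0.04 without MGL KO 2, -0.02 without WT 1, 0.25 without MGL KO 4 and 0.22 without WT 3.

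The groups did not overlap for 4 of the 12 immediate early genes and 2 of the 8 muscle regeneration genes, all higher in MGL KO, beside 2.72% of all tested genes, and for 1 fibroblast and 1 macrophage marker, both lower, beside 3.3%. The 2 regeneration genes were Myh3, the embryonic myosin heavy chain, at 31.0 to 61.4 normalized CPM in MGL KO and 6.74 to 13.1 in WT (log2 fold change 2.11, SE 0.27), and Myod1, a myogenic transcription factor, at 24.5 to 45.4 and 11.7 to 18.9 (log2 fold change 1.03, SE 0.22). edgeR's quasi-likelihood test called 0 genes of the 8 lists at an adjusted p of 0.05 and gave Myh3 an adjusted p of 0.0535. At an unadjusted p under 0.05 it had 1 skeletal muscle, 7 immediate early, 5 macrophage, 2 fibroblast, 1 endothelial, 0 adipocyte, 3 airway and 2 regeneration genes, beside 8.65% of all tested genes. Both regeneration genes passed under DESeq2 and under edgeR's exact test with and without the filter, and Myh3 also under limma-voom. Of the immediate early genes, 4 passed under DESeq2, 3 under the exact test on filtered genes, 2 under that test without the filter and 1 under limma-voom, and the other 6 lists had 0 calls under these tools.

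Levels between the genes were compared per kilobase of exon. In WT esophagi Trim72 was highest at 111 ± 29.1 normalized CPM per kb, followed by Cav3 at 73.1 ± 26.3, Anxa2 at 70.2 ± 9.99 and Anxa1 at 55.2 ± 10.7 (SD, n = 4 each), and neighbors among these 4 overlapped. Dysf took the fifth place at 10.3 ± 1.71 normalized CPM per kb, without overlap with Anxa1 above or with Myof below, at 4.51 ± 1.45. Capn3 at 1.94 ± 0.22, Fer1l5 at 1.24 ± 0.15, Fer1l6 at 0.368 ± 0.090 and Otof at 0.119 ± 0.031 normalized CPM per kb followed, none overlapping its neighbor. Dysf was therefore the most abundant ferlin, also in MGL KO at 20.5 ± 5.04 normalized CPM per kb, where it again held the fifth place. There, Capn3 and Fer1l5 overlapped, as did Fer1l5 and Fer1l6. Counted per kilobase of the longest transcript, the first 4 changed places, with Anxa2 first at 155 normalized CPM per kb in WT, and Dysf kept the fifth place.

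**Figure D5:**
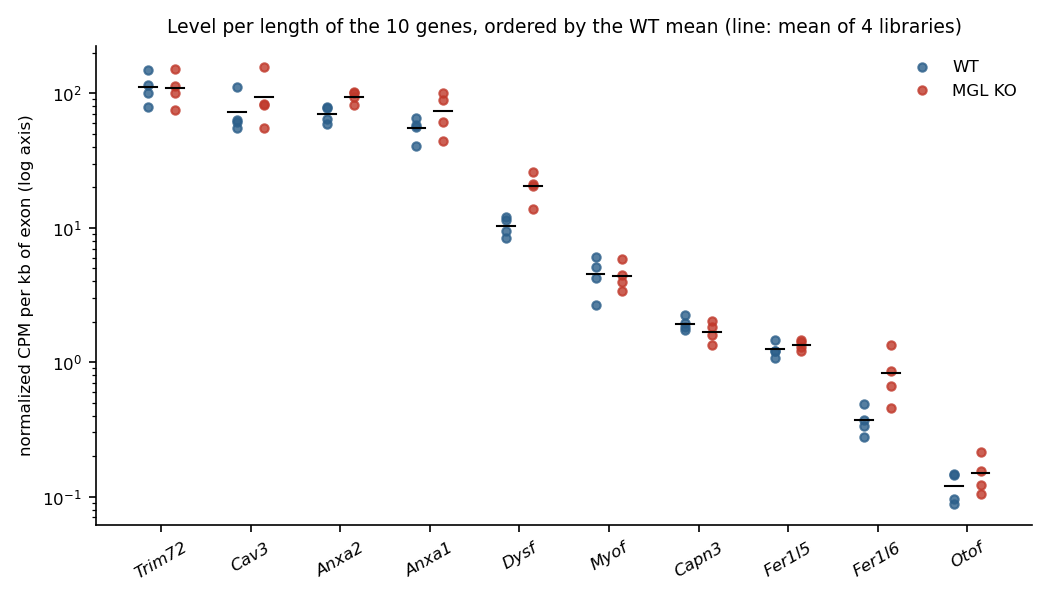
Normalized CPM per kilobase of exon (log axis) of the 10 genes in each WT and MGL KO library, ordered by the WT mean, with lines for the means of 4 libraries. Dysf stands between the group of Trim72, Cav3 and the annexins above 40 and the other ferlins and Capn3 at or below 6.04 in WT.

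Dysf and Cav3 lie on chromosome 6 with the deleted gene. On GRCm39, Dysf spans chr6:83985345-84188042 on the forward strand, 4.464 Mb from Mgll at chr6:88652108-88805342, and Cav3 spans chr6:112436466-112449833, 23.631 Mb from it. The tested genes next to Dysf did not follow it. Zfp638, 18.4 kb before it, had a log2 fold change of 0.09 (SE 0.11), Paip2b 0.04 (SE 0.08) and Nagk -0.10 (SE 0.11). On the other side, Cyp26b1 had -0.42 (SE 0.23), Exoc6b -0.01 (SE 0.10) and Spr -0.03 (SE 0.19). The groups overlapped for all 6, and edgeR's quasi-likelihood test gave them adjusted p between 0.643 and 0.977. Of the 54 tested genes between Dysf and Mgll, 1 passed an adjusted p of 0.05 by that test, Kbtbd12, beside 0.0471% of all tested genes. The groups did not overlap for 7 of the 54, a larger share than the 6.02% of all tested genes, and the reason was not tested. Over the 54, log2 fold changes were above 0 for 23, with a median of -0.02.

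The genes whose levels were most like Dysf over the 8 libraries, by Pearson's r of log2 CPM among 14864 genes, were Zfp651 (r = 0.969), Plekhf1 (r = 0.969), Esrrg (r = 0.968), Samd4 (r = 0.968) and Mief1 (r = 0.967). Their log2 fold changes, 0.25 for Mief1 to 0.65 for Plekhf1, follow from this choice, since Dysf itself differed between the groups. With the group means taken out, the closest were Fem1a (r = 0.995), Timm29 (r = 0.993), Gpc1 (r = 0.993), Pknox2 (r = 0.989) and Dusp27 (r = 0.988), whose log2 fold changes lay between -0.04 and 0.22. The lists of 5 shared 0 genes.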

How the data were processed

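Poly(A)-selected RNA of 4 MGL KO and 4 WT esophagi was sequenced. The authors checked reads with FastQC 0.11.9, trimmed adapters with Cutadapt, aligned to GRCm39 with STAR 2.7.10b and deposited raw counts per gene symbol for each library. The counting tool, annotation and use of strand are not given in the sources used here. Groups came from the labels. Members and lists were chosen with earlier results of these data known.

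Of 22721 symbols with a count, filterByExpr (edgeR 4.0.16, R 4.3.3, minimum count 10) kept 14864, which held 98.1% to 99.9% of the counts of a library. Both groups were fitted with TMM factors, tested by edgeR's quasi-likelihood method and adjusted after Benjamini-Hochberg at 0.05. Standard errors came from the F statistic. Alternatives were edgeR's exact test, named in the study's methods, DESeq2 1.42.0, limma-voom (limma 3.58.1) with quality weights, a robust fit, other scalings and filters, a skeletal muscle covariate, the replicate number as a block and each library left out. Log2 CPM used a prior count of 1. Tests were tested on simulated data. Libraries of a group differed by more than sampling noise (chi-square per degree of freedom of 13.7 or more).

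Named genes were the 10 members, Mgll and, from each list, those past the threshold, the 3 highest and the 3 with the largest rise and fall, the neighbors of Dysf, and the 5 most like it, of which some are not reported here. Genes that share exon bases with a member or marker, Tnnc2, Tagln, Myh3, Myod1 and Kbtbd12 were named after their values were seen. Lengths, positions and promoters came from the GRCm39 genome with GENCODE M39, in which 30742 symbols (93.6%) were found. Protein sequences were not used here.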

Additional observations from a re-analysis of the deposited data

Results flagged for a closer look

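In groups of 4, 42 sets of values (the 10 genes, Mgll, the ratios of Dysf to Trim72 and to Cav3 counts, and 8 of the marker lists, in each group) were checked for a library far from the other 3 by Dixon's ratio at its 95% critical value. This flagged 3 sets, where chance alone gives about 2.1. Cav3 in WT 3 was at 144 normalized CPM with the next library at 82.1. The ratio of Dysf to Cav3 counts in MGL KO 2 was 1.49 with the next library at 2.21. The basal squamous markers in WT 3 had a mean log2 CPM of 8.56 with the next library at 8.99. WT 3 and MGL KO 2 are the libraries highest in skeletal muscle markers of their groups, with mean log2 CPM of 11.19 and 11.35.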

How the results depend on the processing

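The log2 fold change of Dysf lay between 0.92 and 1.01 in the 12 other settings that kept all libraries. Of the 10 genes, 1 passed the threshold (Dysf) under the exact test on filtered genes, the exact test without the filter, DESeq2, limma-voom with quality weights and the skeletal muscle covariate, and 0 in the others and with each library left out. Over all genes, 7 calls became 64 and 42 under the exact tests, 137 under DESeq2, 25 under limma-voom, 29 with the covariate, 2 with robust dispersions, 2 with every counted gene, and between 2 and 5 with single libraries left out. The replicate block gave 2 calls in all and 0 of the 10 genes. Same-numbered libraries correlated at -0.14, -0.28, -0.14 and 0.08 over 14864 genes, so the numbers were not taken to pair mice. Other repair genes and dystrophin complex genes stayed at 0 calls in every setting. The 5 genes most like Dysf shared 0 with those by Spearman's rho, and 0 with those with group means taken out by either measure. Tied values of rho fill the Spearman lists, so those counts say nothing about the measure. The cause of these differences was not tested. Depth limits Otof, at 12 to 31 counts.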
